A study of Caenorhabditis elegans with 18 samples.

Results

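The V-ATPase and lysosomal protease genes described here are the 60 of 46904 genes in the deposited table whose WormBase name is vha, cpr, cpz, asp, lmp, scav or asm followed by a number, together with cpl-1 and unc-32. They comprise 21 subunits of the vacuolar proton pump, 28 cathepsin-type proteases, 8 membrane proteins and 3 acid sphingomyelinases. They were measured by RNA sequencing of whole Caenorhabditis elegans larvae at the first stage (L1), in 6 groups with 3 libraries each. Larvae were of the wild type N2, carried the deletion allele raga-1(ok386), or carried the deletion allele rsks-1(ok1255). Embryos obtained by bleaching adults kept at 20 °C spent 24 h in M9 buffer without food, so that larvae of every group had hatched starved. Starved groups were collected at that point and fed groups after 4 h with OP50 bacteria. Each genotype is represented by 1 strain.

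The vacuolar proton pump (V-ATPase) moves protons into lysosomes, endosomes and secretory vesicles and, at the apical face of some epithelia, out of the cell. Its cytosolic V1 sector splits ATP and turns a ring of proteolipids in the membrane V0 sector, and the resulting acid is what lysosomal proteases of the cathepsin type need to work. The nematode intestine holds large acidic lysosome-related granules and also secretes cathepsins into the gut lumen, so these genes serve both breakdown inside cells and digestion of bacteria. RagA, encoded by raga-1, acts on the lysosome surface beside the pump to activate the growth kinase TORC1, and rsks-1 encodes the S6 kinase that TORC1 phosphorylates.

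Library totals ranged from 9929323 to 18539402 counts, and 14073 genes, 57 of the 60 members among them, had enough counts to be tested. The 3 members left out were the aspartyl protease genes asp-15, with 9 counts over the 18 libraries, and asp-18 and asp-19, with 0 counts in each of them. No count of raga-1 was found in any of the 6 libraries of its mutant. Levels are given as counts per 1000000 (CPM), scaled by the trimmed mean of M-values (TMM). The rsks-1 gene was at 186 ± 9.39 CPM in starved N2 and at 37.5 ± 3.69 CPM in the starved deletion strain. Whether replicates are separate cultures is not stated in the labels, so p-values may measure technical spread. Because RNA came from whole larvae, a difference in the number of cells of a type and a difference in RNA per cell cannot be told apart. Of 7 intestinal marker genes found, 3 rose, 3 fell and 1 was not called on feeding in N2. Their summed level was 2311 to 2348 CPM in starved and 4027 to 4073 CPM in fed N2, 3004 to 3089 and 3285 to 3371 CPM in raga-1, and 2889 to 2918 and 3618 to 3648 CPM in rsks-1 mutants. All 6 neuronal markers fell on feeding in each genotype, with summed levels of 1706 to 1755 CPM in starved and 921 to 948 CPM in fed N2, and 3 of 4 pharyngeal markers fell in N2. Of 4 body wall muscle markers 3 fell and 1 rose in N2, and all 3 coelomocyte markers fell. The 2 germ line markers tested rose, as did 2 of 3 epidermal ones tested. Of all tested genes 36.5% rose and 37.4% fell in N2. Counts of 0 occurred in 1 to 6 libraries for the epidermal markers dpy-7, rol-6 and dpy-5 and the germ line marker nos-2. No intestinal, excretory cell or neuronal marker was at 0 in any library, and the part of tissue make-up in the results below was not tested.

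Taken as sums, pump transcripts were higher in fed than in starved libraries of each genotype, and protease transcripts were lower. The 21 pump subunits together were at 6446 ± 20.4 CPM in starved and 10752 ± 75.4 CPM in fed N2 (mean ± SD of 3 libraries, as below), without overlap between libraries. The sums were 7263 ± 41.6 and 9914 ± 146 CPM in raga-1 and 6895 ± 41.4 and 8783 ± 93.95 CPM in rsks-1 mutants. The 28 proteases were at 14636 ± 194 CPM in starved and 13636 ± 204 CPM in fed N2. In raga-1 mutants they were at 15816 ± 311 CPM starved and 14920.0 ± 236 CPM fed. In rsks-1 mutants the protease sum was 13837 ± 217 CPM starved and 9403 ± 148 CPM fed, the lowest of the 6 groups. All 60 members together took from 1.68 ± 0.0131% of all counts in fed rsks-1 to 2.70 ± 0.0350% in fed raga-1 larvae. TMM assumes that most genes keep their level, and with library totals alone the median log2 change of all tested genes on feeding moved from -0.07 to -0.37 in N2, from -0.05 to -0.15 in raga-1 and from -0.02 to -0.22 in rsks-1 mutants. On the unscaled share of counts, pump subunits still had the larger share after feeding in N2 (0.677 ± 0.00546% starved and 0.917 ± 0.0111% fed), in raga-1 (0.830 ± 0.00627% starved and 1.06 ± 0.0187% fed) and in rsks-1 mutants (0.707 ± 0.00455% and 0.785 ± 0.00426%).

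**Figure D1:**
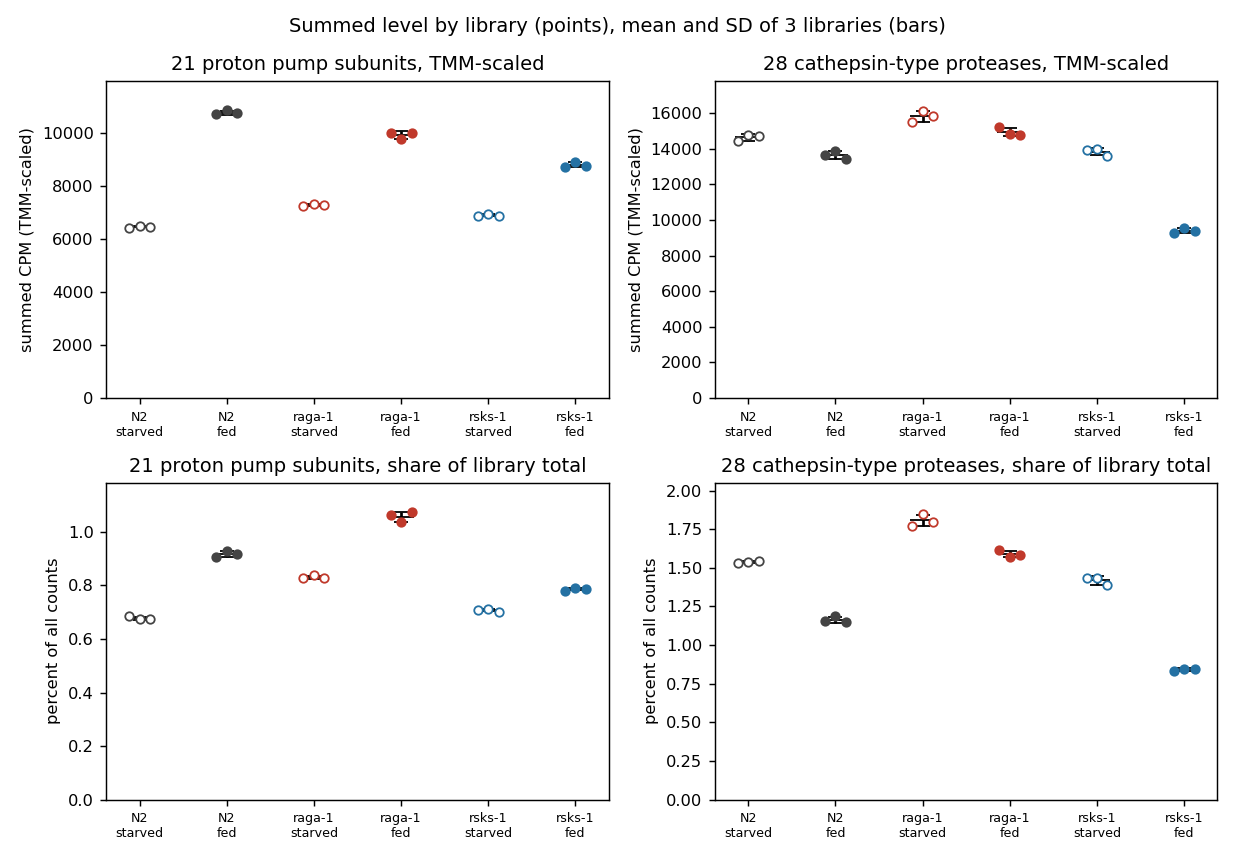
Summed level of the 21 proton pump subunits (left) and the 28 cathepsin-type proteases (right) in each of 18 libraries, as TMM-scaled CPM (top) and as percent of all counts (bottom); points are libraries, bars the mean and SD of 3. Fed libraries lie above starved ones for the pump in each genotype on both scales, and fed rsks-1 libraries have the lowest protease sums.

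Feeding of N2 larvae raised transcripts of nearly the whole pump. Of 21 subunits tested, 18 rose and 1 fell at an adjusted p below 0.05, where 36.5% of the 14073 tested genes rose and 37.4% fell, and the median log2 change was 0.61 against -0.07 over all tested genes. With library totals alone the counts were 15 and 2, where 27.3% of tested genes rose and 49.3% fell. In the cytosolic V1 sector the largest rise was in its ATP-splitting head. The gene vha-12, which encodes the B subunit (WBGene00006921, chromosome X, 4191094 to 4193144, plus strand, build WBcel235 here and below), was at 311, 311 and 314 CPM in the starved N2 libraries and at 757, 819.7 and 753 CPM in the fed ones (log2 change 1.32, SE 0.04; Benjamini-Hochberg adjusted p = 9.84e-42, edgeR quasi-likelihood). The catalytic A subunit gene vha-13 was at 599, 590.4 and 613 CPM starved and at 1294, 1351 and 1327 CPM fed (log2 change 1.14, SE 0.03; Benjamini-Hochberg adjusted p = 1.41e-69, edgeR quasi-likelihood). For both genes every fed library was above every starved one. Close behind were the C subunit gene vha-11, whose product links the V1 and V0 sectors, from 211, 214 and 216 to 475, 486 and 475 CPM (log2 change 1.16, SE 0.03), and the stalk subunit E gene vha-8 (log2 change 1.04, SE 0.03).

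The remaining V1 genes changed by less. The stalk subunit G gene vha-10 changed by 0.91, SE 0.03, the rotor subunit D gene vha-14 by 0.61, SE 0.03 and the regulatory H subunit gene vha-15 by 0.61, SE 0.03 on the log2 scale. The rotor subunit F gene vha-9 was lower and more variable, at 144, 141 and 132 CPM starved and 199, 179.8 and 170.5 CPM fed (log2 change 0.40, SE 0.08). The second H gene, vha-18, was close to absent: it held 19, 18 and 18 counts in the starved and 9, 10 and 10 counts in the fed N2 libraries. It supplied 0.561 ± 0.0849% of the length-corrected transcript level (TPM, counts per isoform length as a share of 1000000) of both H genes in starved N2, and it passed the test in none of the 10 comparisons. These values and those for the membrane sector are shown in the plot of pump responses by genotype.

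**Figure D2:**
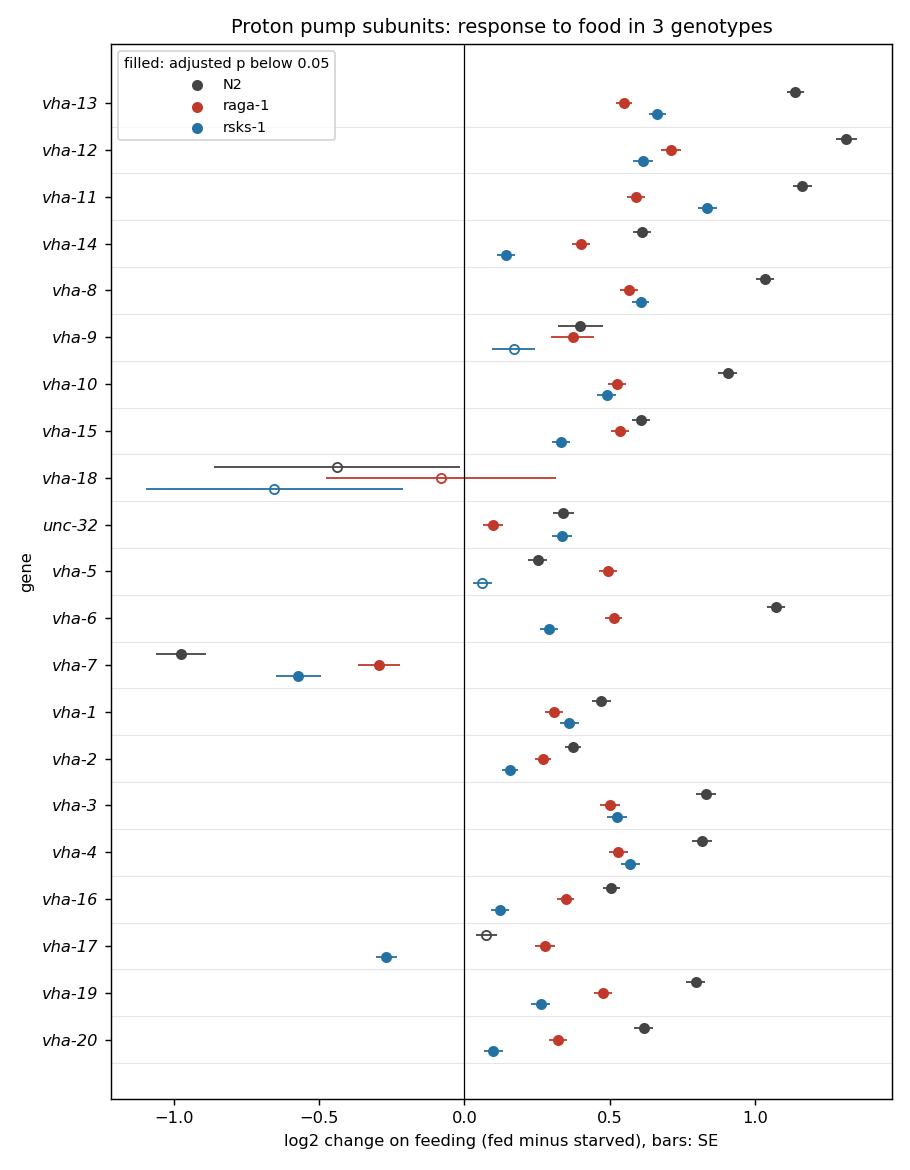
Log2 change on feeding (fed minus starved, TMM-scaled, bars SE from edgeR) of each pump subunit in N2, raga-1 and rsks-1, with V1 genes at the top and V0 genes from unc-32 down; filled points passed an adjusted p of 0.05. The largest rises are in N2 for vha-12 (1.32), vha-11 (1.16) and vha-13 (1.14), vha-7 falls in each genotype, and with library totals alone vha-5 and vha-17 turn below 0 in N2, unc-32 in raga-1, and vha-2, vha-5, vha-9, vha-14, vha-16 and vha-20 in rsks-1.

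In the membrane sector the response depended on which of the 4 a subunit genes was measured. The a subunit carries the proton path and places the pump in the cell, and in the worm vha-6 is the form of the apical intestinal membrane, vha-5 that of the excretory cell and epidermis, and unc-32 the form known best from neurons. The intestinal vha-6 (WBGene00006915, chromosome II, 11435210 to 11438452, minus strand) measured 383, 379 and 373 CPM in starved and 777, 797 and 815 CPM in fed N2 (log2 change 1.07, SE 0.03; Benjamini-Hochberg adjusted p = 2.42e-65, edgeR quasi-likelihood). That increase separated the groups completely. By contrast vha-5 was at 281, 275 and 270.1 CPM starved and 321, 331 and 331 CPM fed (log2 change 0.25, SE 0.03), a rise that turned to -0.05 with library totals alone. The gene unc-32, over all its isoforms, was at 217, 215 and 200.4 CPM starved and 269, 263 and 269 CPM fed (log2 change 0.34, SE 0.04), and with library totals alone its change of 0.04 did not pass. The fourth gene, vha-7, was the single pump gene to fall in N2, from 47.7, 38.1 and 44.2 to 19.3, 20.9 and 25.9 CPM (log2 change -0.98, SE 0.09; Benjamini-Hochberg adjusted p = 2.68e-19, edgeR quasi-likelihood).

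Among transcripts for the a subunit, measured per length as TPM, vha-6 held a larger share in fed than in starved N2. Its share went from 45.05 ± 0.477% in starved to 59.6 ± 0.271% in fed N2, while vha-5 went from 29.9 ± 0.0950% to 22.3 ± 0.161%. Over the same step unc-32 went from 21.01 ± 0.484% to 16.7 ± 0.409% and vha-7 from 4.07 ± 0.394% to 1.43 ± 0.289%. In neither mutant did the share of vha-6 reach that of fed N2. In raga-1 the share of vha-6 was 47.5 ± 0.371% starved and 51.1 ± 0.577% fed, and in rsks-1 it was 48.5 ± 0.542% and 50.98 ± 0.560%. In raga-1 the share of vha-5 was higher fed (30.7 ± 0.117%) than starved (28.9 ± 0.219%), and in rsks-1 the share of unc-32 was higher fed (20.7 ± 0.613%) than starved (19.1 ± 0.210%). In each of these pairs the fed and starved libraries did not overlap. Shares do not depend on the scaling of libraries. These shares were not tested as such.

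The unc-32 gene (WBGene00006768, chromosome III, 8905615 to 8911756, plus strand) makes its a subunit in several forms through exons that exclude each other, and the deposited isoform estimates differed between starved and fed libraries. In the first set, at bases 8906524 to 8907432, are an exon of 155 bases, then one of 107 bases and a last one. Isoforms with the 107-base exon took 59.8 ± 2.94% of unc-32 isoform counts in starved N2 and 42.2 ± 3.37% in fed N2, and those with the 155-base exon took 21.1 ± 4.05% and 36.4 ± 4.40%. The 3 fed libraries lay below the 3 starved ones for the first and above them for the second, which gives p = 0.1 in an exact two-sided permutation test, the smallest that 3 against 3 libraries allow. In raga-1 the 107-base share was 66.1 ± 1.35% starved and 55.5 ± 2.12% fed, and in rsks-1 it was 59.4 ± 2.23% and 42.9 ± 1.76%, again without overlap (exact permutation p = 0.1 each). For the last exon, starved and fed N2 libraries overlapped (14.95 to 21.9% and 20.3 to 22.5%, exact permutation p = 0.4). So did those of raga-1 (13.1 to 14.97% and 12.1 to 17.4%, exact permutation p = 0.6). The rsks-1 libraries lay close without overlap, at 17.2 to 21.32% starved and 21.33 to 22.8% fed (exact permutation p = 0.1). In the second set the share of the 123-base exon was 61.6 ± 1.87% in starved and 46.9 ± 6.36% in fed N2 (exact permutation p = 0.1), the 141-base exon holding the rest. Isoform values are estimates that divide reads among overlapping isoforms. Neuronal markers fell with food in the same libraries, and the part of tissue make-up in these isoform shares was not tested.

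**Figure D3:**
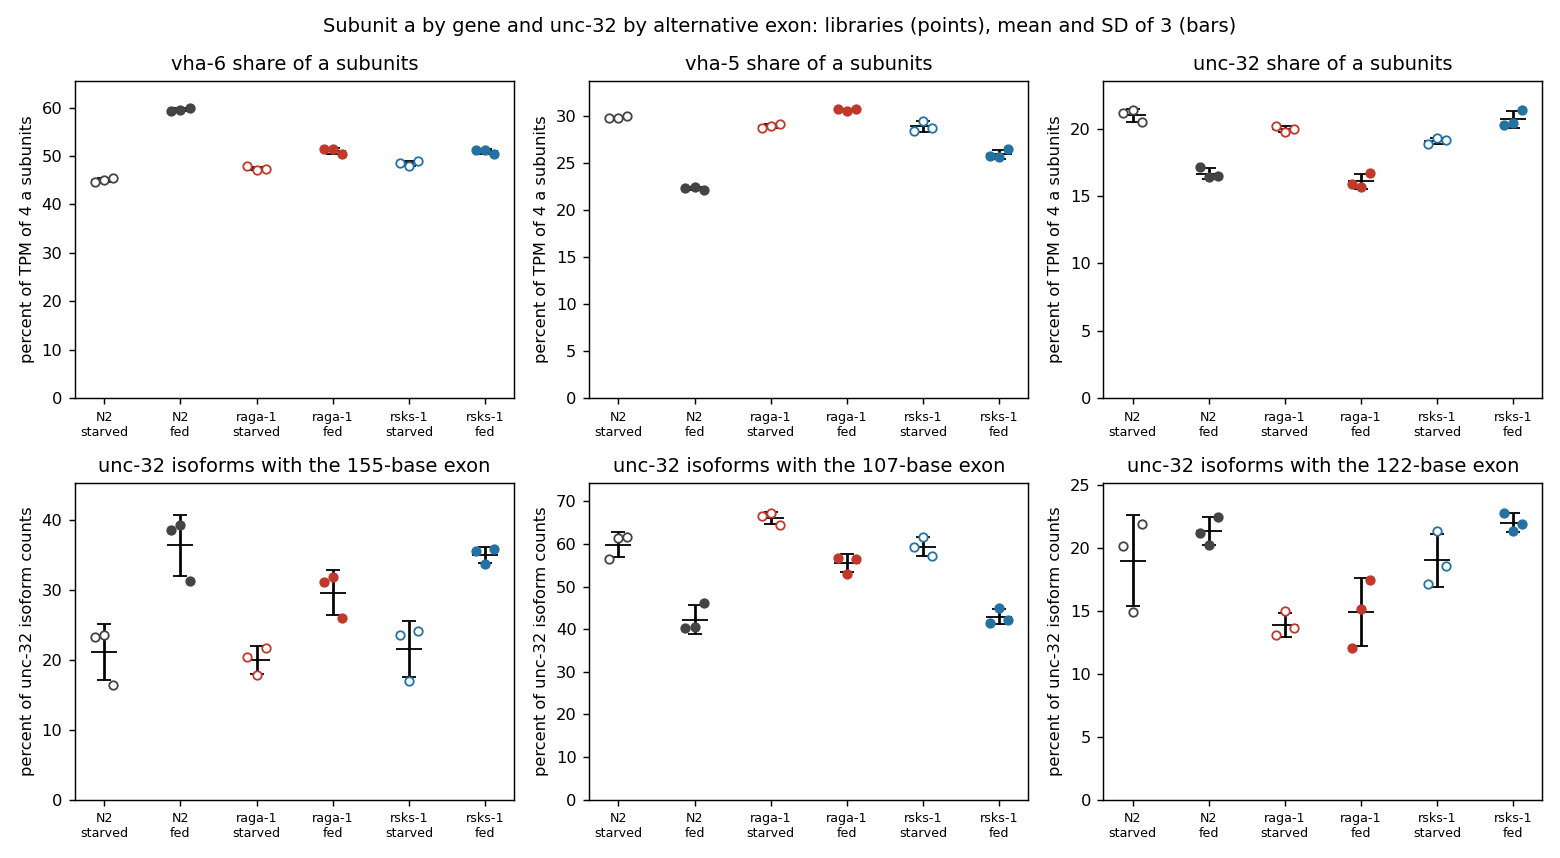
Top, share of vha-6, vha-5 and unc-32 in the TPM of the 4 a subunit genes. Bottom, share of unc-32 isoform counts with each of the 3 alternative exons of the first set, with points for libraries and bars for the mean and SD of 3: vha-6 is highest in fed N2 (59.6%) and the 107-base exon is lower in fed than in starved libraries of each genotype, for example 42.2 against 59.8% in N2.

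The proteolipid ring and its partners rose in N2 as well. Its 4 genes differed in size of change: vha-3 and vha-4 changed by 0.83, SE 0.04 and 0.82, SE 0.03, and vha-1 and vha-2 by 0.47, SE 0.03 and 0.37, SE 0.03 on the log2 scale. The gene vha-2, the most abundant pump transcript per length, was at 975, 985 and 979 CPM starved and at 1301, 1263 and 1246 CPM fed. Its share of proteolipid TPM was 45.2 ± 0.0820% in starved and 39.97 ± 0.734% in fed N2, while that of vha-3 was 20.8 ± 0.312% and 25.2 ± 0.486%. Both vha-2 and vha-3 encode proteolipids, and their transcript sequences were not compared here. Reads could in principle be divided between such genes, although all 60 members had whole-number values in every library. The d subunit gene vha-16 (log2 change 0.51, SE 0.03) and the accessory subunit genes vha-19 (log2 change 0.80, SE 0.03) and vha-20 (log2 change 0.62, SE 0.03) also rose. The e subunit gene vha-17 was at 223, 228 and 225 CPM starved and at 240.1, 231 and 241 CPM fed and did not pass the test (log2 change 0.07, SE 0.04), while with library totals alone it was called lower (log2 change -0.23).

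Pump transcripts also rose on feeding in both mutants, by less than in N2 for most subunits under TMM (for 8 in raga-1 with library totals alone). In raga-1 mutants 19 subunits rose and 1 fell (29.4% and 32.9% of tested genes), with a median log2 change of 0.48, and in rsks-1 mutants 16 rose and 2 fell (35.7% and 35.2%), with a median of 0.29. With library totals alone the counts were 11 and 5 in rsks-1 (28.3% and 44.4% of tested genes) and 18 and 1 in raga-1 (24.0% and 39.6%). The log2 changes of vha-20 (-0.10), vha-16 (-0.08), vha-14 (-0.05) and vha-2 (-0.04) in rsks-1 were then below 0. Under TMM vha-5 and vha-9 rose in N2 and raga-1 without a call in rsks-1, and vha-7 fell in all 3 genotypes. The response of raga-1 was below that of N2 for 15 subunits and above it for 3 (28.8% and 21.8% of tested genes). With library totals alone it was below for 8 and above for 5 (19.9% and 32.1%), where the median of all genes shifted from -0.03 to 0.17. The response of rsks-1 was below that of N2 for 16 subunits and above it for 1 (15.8% and 10.8%), or for 15 and 1 with library totals alone (10.2% and 16.7%). Both differences use the same N2 libraries. That 1 subunit was vha-7 (log2 response difference 0.41, SE 0.12; Benjamini-Hochberg adjusted p = 0.00515, edgeR quasi-likelihood), and its call was lost without N2 fed replicate 1 (0.31) or rsks-1 fed replicate 2 (0.32).

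The B subunit gene vha-12 shows the pattern. Starved raga-1 libraries held 409, 459 and 438 CPM and fed ones 729, 669 and 738 CPM (log2 change 0.71, SE 0.03), and at 358, 360.4 and 361 and 556, 566 and 529 CPM in rsks-1 (log2 change 0.61, SE 0.04). Fed libraries were above starved ones in both mutants, but the rise fell short of that in N2 in raga-1 (log2 response difference -0.61, SE 0.05; Benjamini-Hochberg adjusted p = 6.21e-17, edgeR quasi-likelihood) and in rsks-1 (log2 response difference -0.70, SE 0.05; Benjamini-Hochberg adjusted p = 7.64e-19, edgeR quasi-likelihood). Starved mutants began higher than starved N2 for this gene, by 0.48, SE 0.04 in raga-1 and by 0.21, SE 0.04 in rsks-1 on the log2 scale. The intestinal a subunit gene vha-6 had the largest shortfall of the pump in rsks-1, at 415, 417 and 419.6 CPM starved and 514, 517 and 501 CPM fed (log2 response difference -0.78, SE 0.04; Benjamini-Hochberg adjusted p = 4.23e-35, edgeR quasi-likelihood). In raga-1 it was at 456, 450.2 and 453 CPM starved and 653, 636 and 652 CPM fed (log2 response difference -0.56, SE 0.04; Benjamini-Hochberg adjusted p = 1.88e-24, edgeR quasi-likelihood). The sum of intestinal markers, in which act-5 and ifb-2 held the most counts, rose by less in the same mutants under TMM. Single markers went both ways in N2, as given above, and the part of tissue make-up in these differences was not tested.

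Some subunits responded in other ways in the mutants. The epidermal and excretory form vha-5 was at 300.5, 304 and 306 CPM in starved and 429, 415 and 438 CPM in fed raga-1, the highest level of any group (log2 change 0.49, SE 0.03), and its response exceeded that of N2 (log2 response difference 0.24, SE 0.05; Benjamini-Hochberg adjusted p = 2.53e-06, edgeR quasi-likelihood). In rsks-1 it was at 267, 283 and 271 and 283, 284 and 289 CPM and did not pass the test (log2 change 0.06, SE 0.03, and -0.14 with library totals alone). Under TMM, summed excretory cell markers were at 81.7 to 88.2 CPM in starved and 90.6 to 92.6 CPM in fed raga-1, below the 101 to 110.2 CPM of fed N2. Summed epidermal markers were at 125 to 135 CPM in fed raga-1 and 142 to 146 CPM in fed N2. With library totals alone, 2 of 5 excretory cell markers were higher and 0 lower in fed raga-1 than in fed N2. Their median log2 difference was then 0.27, against 0.33 over all tested genes. The part of tissue make-up in the vha-5 difference was not tested. The e subunit gene vha-17, not called in N2, rose in raga-1 (log2 change 0.28, SE 0.03) and fell in rsks-1 (log2 change -0.27, SE 0.04), and those responses differed (log2 response difference 0.55, SE 0.05; Benjamini-Hochberg adjusted p = 6.55e-19, edgeR quasi-likelihood). The fall of vha-7 was smaller in raga-1 than in N2, from 41.97, 44.5 and 39.9 to 36.02, 32.4 and 34.5 CPM (log2 response difference 0.68, SE 0.11; Benjamini-Hochberg adjusted p = 1.28e-07, edgeR quasi-likelihood). In raga-1 the rise of unc-32 was 0.10, SE 0.03 on the log2 scale, lost without raga-1 fed replicate 3 (0.06) and -0.001 with library totals alone.

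Set against N2 in the same state, pump transcripts were higher for most subunits in starved raga-1 larvae and for fewer in starved rsks-1 larvae. In starved raga-1 larvae 13 subunits were higher and 1 lower (27.0% and 25.7% of tested genes), led by vha-12, vha-13 (log2 difference 0.41, SE 0.03) and vha-10 (log2 difference 0.37, SE 0.03), and in starved rsks-1 larvae 10 were higher and 1 lower (15.1% and 11.9%). The lower ones were vha-17 in raga-1 (log2 difference -0.09, SE 0.04, and 0.03 with library totals alone) and unc-32 in rsks-1 (log2 difference -0.10, SE 0.04). The call of vha-17 was lost without starved N2 replicate 2 or starved raga-1 replicate 2 or 3, which brought the count to 0. The call of unc-32 was lost without starved N2 replicate 1 (-0.08) or 2 (-0.09) or starved rsks-1 replicate 1 (-0.09) or 3 (-0.10). With library totals alone 17 subunits were higher and 0 lower in starved raga-1 (35.8% and 17.2% of tested genes), and 7 higher and 1 lower in starved rsks-1 (12.9% and 15.5%). Leaving out single libraries gave 7 to 10 higher subunits in starved rsks-1. In fed rsks-1 larvae 17 subunits were lower and 1 higher than in N2 (22.6% and 17.4%), with a median difference of -0.27. The largest called differences were those of vha-6 (log2 difference -0.64, SE 0.03), vha-19 (log2 difference -0.51, SE 0.03) and vha-12 (log2 difference -0.50, SE 0.03) on the log2 scale. For fed raga-1 larvae the direction depended on the scaling, with 3 subunits higher and 13 lower (28.9% and 34.4% of tested genes) under TMM but 17 higher and 0 lower with library totals alone, where the median of all genes moved from 0.01 to 0.33. With only the libraries compared in the fit, edgeR called 7 subunits lower. The higher subunit in fed rsks-1 was vha-7 (log2 difference 0.26, SE 0.09), lost without N2 fed replicate 1 (0.17) or 2 (0.23) or rsks-1 fed replicate 2 (0.18).

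The cathepsin-type proteases did not move together. Of 25 tested in N2, 10 rose and 15 fell on feeding, with a median log2 change of -0.23. In raga-1 7 rose and 15 fell (median -0.35), and in rsks-1 5 rose and 16 fell (median -0.43), where the shares of all tested genes are those given for the pump. With library totals alone the counts were 7 and 16 in N2, 5 and 19 in rsks-1 and 5 and 18 in raga-1. Per length, the class was led by the aspartyl protease gene asp-1, an intestinal enzyme, which held from 29.8 ± 0.0274% of protease TPM in starved N2 to 35.7 ± 0.192% in fed N2. Next came asp-6, with 20.4 ± 0.0678% in starved and 12.5 ± 0.150% in fed N2, then asp-3 and asp-5 in the mean over groups. The lowest of the 25 tested, asp-17, averaged 0.626 TPM over the groups against 4038 TPM for asp-1.

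Several proteases known from lysosomes fell with food. The cathepsin Z gene cpz-1 (WBGene00000788), whose product is needed for moulting in worms, was at 246, 242 and 248 CPM in starved and 23.4, 23.4 and 21.1 CPM in fed N2 (log2 change -3.44, SE 0.06; Benjamini-Hochberg adjusted p = 1.45e-92, edgeR quasi-likelihood). The groups were far apart, and no other of the 25 tested proteases fell as far in N2. It fell in rsks-1 from 189, 211 and 199.98 to 28.7, 28.9 and 29.4 CPM (log2 change -2.78, SE 0.05) and in raga-1 from 127, 134 and 135 to 45.3, 43.9 and 44.04 CPM (log2 change -1.58, SE 0.05). Its fall was smaller in raga-1 than in N2 (log2 response difference 1.86, SE 0.08; Benjamini-Hochberg adjusted p = 4.31e-47, edgeR quasi-likelihood), from a starved level that was already lower (log2 difference -0.89, SE 0.04 on the log2 scale). Its paralogue cpz-2 also fell in each genotype, with log2 changes of -0.79, SE 0.03 in N2, -0.39, SE 0.03 in raga-1 and -0.35, SE 0.03 in rsks-1.

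The cathepsin L gene cpl-1, which serves yolk and lysosomal protein breakdown, was at 344, 352 and 357 CPM in starved and 159, 162 and 165 CPM in fed N2 (log2 change -1.11, SE 0.04; Benjamini-Hochberg adjusted p = 1.36e-57, edgeR quasi-likelihood). In raga-1 it was at 237, 245 and 227 and 97.4, 102 and 104 CPM (log2 change -1.22, SE 0.04), and in rsks-1 at 328, 326 and 333 and 96.95, 101 and 95.5 CPM (log2 change -1.75, SE 0.04). Fed levels lay below starved ones in all genotypes, and fed larvae of both mutants lay below fed N2. The fall was larger in rsks-1 than in N2 (log2 response difference -0.63, SE 0.05; Benjamini-Hochberg adjusted p = 1.67e-20, edgeR quasi-likelihood), while raga-1 was lower than N2 both starved (log2 difference -0.57, SE 0.03) and fed (log2 difference -0.68, SE 0.04) and its response did not differ from that of N2 at the threshold (log2 response difference -0.11, SE 0.05), although it passed without raga-1 starved or fed replicate 3 (-0.13 each). Among cathepsin D-like genes, asp-4, which takes part in necrotic cell death in worms, fell in N2 from 191, 199 and 205 to 158, 153 and 150.3 CPM and was lower still in raga-1, at 105, 99.2 and 100.05 CPM starved and 66.7, 69.6 and 68.3 CPM fed (log2 difference -1.17, SE 0.04 against N2 in fed larvae). The log2 changes of the related asp-3 were small, at -0.15, SE 0.03 in N2, -0.22, SE 0.03 in raga-1 and, without a call, -0.02, SE 0.03 in rsks-1.

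**Figure D4:**
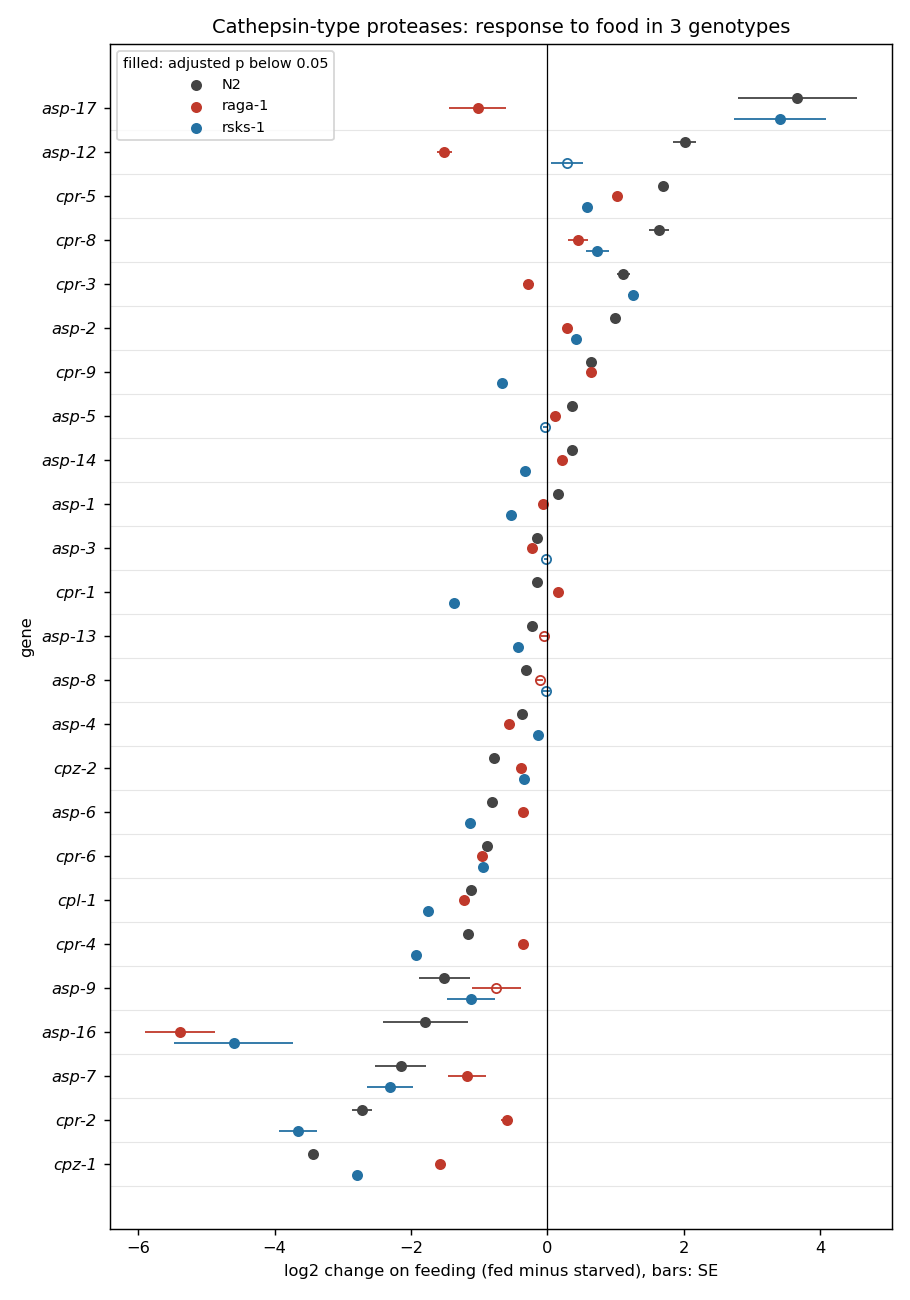
Log2 change on feeding (fed minus starved, TMM-scaled, bars SE from edgeR) of the 25 tested cathepsin-type proteases in N2, raga-1 and rsks-1, ordered by the change in N2; filled points passed an adjusted p of 0.05. The genes spread to both sides of 0 in N2 (10 higher and 15 lower), and asp-1, asp-12, asp-17 and cpr-3 rise in N2 but fall in raga-1, the rise of asp-1 being a fall with library totals alone.

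The 8 cathepsin B-like cpr genes split evenly in N2, where 4 rose and 4 fell. All tested genes were nearly even too, with 36.5% higher and 37.4% lower. The largest rise was in cpr-5 (WBGene00000785, chromosome V, 1132598 to 1134036, minus strand), at 275, 268 and 276 CPM in starved and 872, 892 and 879 CPM in fed N2 (log2 change 1.69, SE 0.03; Benjamini-Hochberg adjusted p = 8.33e-82, edgeR quasi-likelihood). The largest fall was in cpr-2 (WBGene00000782, chromosome V, 16532936 to 16534100, minus strand), at 21.2, 24.5 and 19.3 CPM starved and 3.88, 2.40 and 3.53 CPM fed (log2 change -2.72, SE 0.15; Benjamini-Hochberg adjusted p = 3.88e-34, edgeR quasi-likelihood). Neither gene had overlapping groups. The secreted enzyme gene cpr-4 fell from 1058, 1049 and 1062 to 483, 488 and 449 CPM (log2 change -1.16, SE 0.03), and cpr-6 (log2 change -0.89, SE 0.05) and the gut protease gene cpr-1 (log2 change -0.16, SE 0.03) also fell. The other rises were in cpr-8 (log2 change 1.63, SE 0.14), cpr-3 (log2 change 1.11, SE 0.09) and cpr-9 (log2 change 0.64, SE 0.03).

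In rsks-1 mutants most cpr genes were below their N2 level. In starved larvae 6 of the 8 were lower and 2 higher than in N2 (11.9% and 15.1% of tested genes), the higher ones being cpr-9 (log2 difference 0.33, SE 0.03) and cpr-3 (log2 difference 0.56, SE 0.09). In fed larvae 7 of the 8 were lower and 1 higher than in N2 (of all tested genes 22.6% were lower and 17.4% higher, as above), with a median difference of -1.44 against -0.004 over all genes. The higher gene was again cpr-3, at 48.3, 52.5 and 51.1 CPM in fed rsks-1 and 29.9, 31.9 and 31.8 CPM in fed N2 (log2 difference 0.70, SE 0.08). The gut enzyme gene cpr-1 was at 589.8, 594 and 582 CPM in starved and 224, 227 and 231 CPM in fed rsks-1 libraries, against 656, 713 and 694 and 615, 615 and 618 CPM in N2 (log2 response difference -1.21, SE 0.04; Benjamini-Hochberg adjusted p = 6.82e-53, edgeR quasi-likelihood). Fed rsks-1 libraries were the lowest of all groups for this gene. For cpr-4 the levels were 661, 649 and 661 CPM starved and 172, 169 and 179 CPM fed (log2 response difference -0.76, SE 0.04). Of the genes that rose in N2, cpr-9 went the other way in rsks-1, from 703, 696 and 682 to 433, 431 and 443 CPM (log2 response difference -1.32, SE 0.04; Benjamini-Hochberg adjusted p = 1.76e-58, edgeR quasi-likelihood), and cpr-5 rose by less, from 139.5, 144 and 132 to 199, 223 and 201 CPM (log2 response difference -1.103, SE 0.05; Benjamini-Hochberg adjusted p = 8.81e-43, edgeR quasi-likelihood). Fed rsks-1 larvae had less cpr-5 than even starved N2. The gene cpr-2 was nearly lost in fed rsks-1, with 1, 8 and 7 counts in the 3 libraries (0.103, 0.540 and 0.534 CPM), so that its fitted change of -3.65 rests on few counts.

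In raga-1 mutants the cpr genes did not share 1 direction. Fed raga-1 larvae had 4 higher and 4 lower than fed N2 (28.9% and 34.4% of tested genes), or 4 and 3 with library totals alone. The higher ones included cpr-2, at 52.9, 53.3 and 48.1 CPM starved and 37.4, 33.9 and 30.7 CPM fed against 3.88, 2.40 and 3.53 CPM in fed N2 (log2 difference 3.37, SE 0.14; Benjamini-Hochberg adjusted p = 6e-45, edgeR quasi-likelihood). That made cpr-2 the member with the largest difference between fed raga-1 and fed N2. It fell less with food than in N2 (log2 response difference 2.12, SE 0.18; Benjamini-Hochberg adjusted p = 2.99e-20, edgeR quasi-likelihood). The same was true of cpr-4, from 839, 891 and 862 to 696, 669 and 668 CPM (log2 response difference 0.81, SE 0.04), whereas under TMM cpr-1 rose, from 759, 781 and 769.6 to 863, 851 and 849 CPM (log2 response difference 0.31, SE 0.04). In TPM, which TMM does not scale, cpr-1 in raga-1 was at 915 ± 19.3 starved and 911 ± 18.6 fed. The lower ones included cpr-6, which was lower than N2 in both states (log2 difference -1.37, SE 0.05 starved and -1.43, SE 0.06 fed) and whose fall with food was -0.89, SE 0.05 in N2, -0.96, SE 0.06 in raga-1 and -0.94, SE 0.05 in rsks-1 on the log2 scale, differences that did not pass the test (log2 response difference -0.07, SE 0.07 for raga-1 and -0.06, SE 0.07 for rsks-1, each against N2). The gene cpr-3 rose in N2 and in rsks-1 but fell in raga-1, from 30.7, 32.2 and 30.1 to 26.1, 27.5 and 22.95 CPM (log2 response difference -1.39, SE 0.12; Benjamini-Hochberg adjusted p = 8.31e-20, edgeR quasi-likelihood). For cpr-1 and cpr-4 the response in raga-1 was above that in rsks-1 (log2 response difference 1.52, SE 0.04 and 1.57, SE 0.04).

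**Figure D5:**
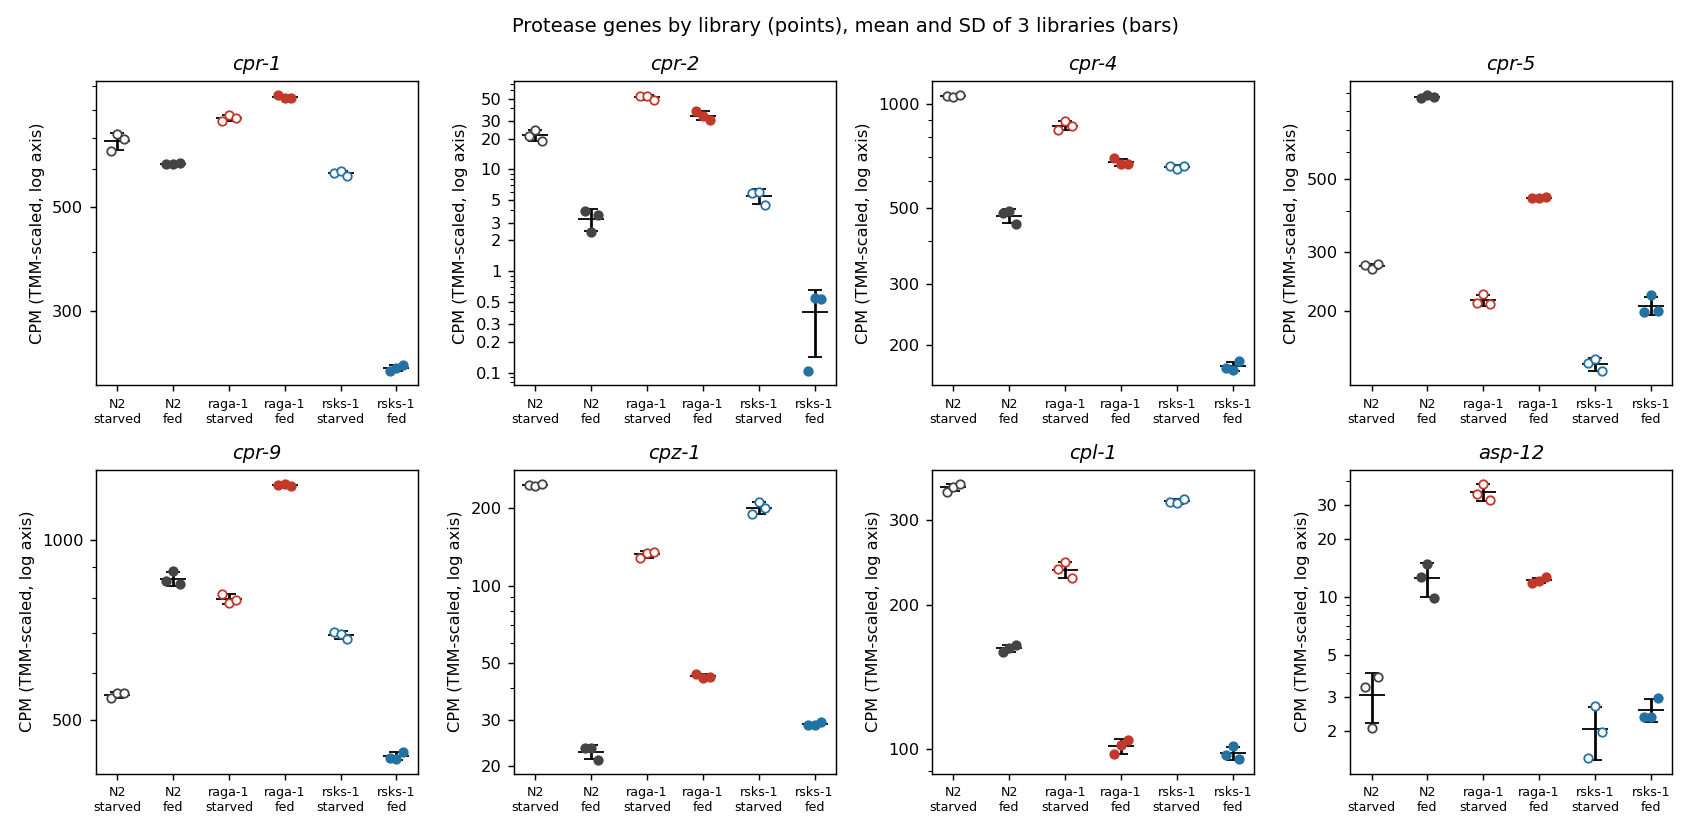
Levels of 8 protease genes in each library (points, TMM-scaled CPM on log axes that differ between panels) with mean and SD of 3 (bars). Fed rsks-1 libraries are the lowest group for cpr-1, cpr-2, cpr-4 and cpr-9, starved raga-1 libraries the highest for cpr-2 and asp-12, and cpz-1 falls with food in each genotype.

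Aspartyl protease genes also differed by genotype. Of 14 asp genes tested, 6 rose and 8 fell in N2 (36.5% and 37.4% of tested genes), 3 rose and 8 fell in raga-1 (29.4% and 32.9%), and 2 rose and 8 fell in rsks-1 (35.7% and 35.2%). Scaled by library totals alone, these were 3 and 9 in N2 and 2 and 11 in each mutant. The direction of the abundant asp-1 in N2 depended on the scaling. It was a called rise under TMM (log2 change 0.15, SE 0.03) and a called fall with library totals alone (log2 change -0.15). The gene fell in raga-1 (log2 change -0.07, SE 0.02) and in rsks-1, there from 4452, 4476 and 4289 to 2991, 3124 and 3046 CPM (log2 response difference -0.68, SE 0.04; Benjamini-Hochberg adjusted p = 1.86e-36, edgeR quasi-likelihood). The second in abundance, asp-6, fell in each genotype, from 2998, 3090.4 and 3078 to 1712, 1782 and 1710.2 CPM in N2 (log2 change -0.82, SE 0.03), with log2 changes of -0.36, SE 0.03 in raga-1 and -1.13, SE 0.03 in rsks-1. Among less abundant genes, asp-2 rose in each genotype, most in N2 (log2 change 0.99, SE 0.03), and asp-5 rose in N2 (log2 change 0.36, SE 0.03) and raga-1 (log2 change 0.10, SE 0.03). Neither rise of asp-5 passed with library totals alone (0.06 and 0.004).

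The gene asp-12 had the strongest dependence on genotype of the aspartyl proteases with 10 or more CPM. Its level was 3.39, 2.09 and 3.81 CPM in starved and 12.7, 14.8 and 9.89 CPM in fed N2 (log2 change 2.01, SE 0.17; Benjamini-Hochberg adjusted p = 1.25e-20, edgeR quasi-likelihood), but at 34.1, 38.7 and 31.6 CPM in starved and 11.8, 12.05 and 12.6 CPM in fed raga-1 (log2 change -1.51, SE 0.11; Benjamini-Hochberg adjusted p = 2.02e-25, edgeR quasi-likelihood). The groups were apart in both genotypes, in opposite directions (log2 response difference -3.53, SE 0.20; Benjamini-Hochberg adjusted p = 1.58e-32, edgeR quasi-likelihood), and fed raga-1 and fed N2 libraries overlapped. In rsks-1 it stayed low, at 1.46, 2.71 and 1.97 CPM starved and 2.37, 2.36 and 2.98 CPM fed, without a call (log2 change 0.29, SE 0.24). A gene of the same kind at far lower counts, asp-17, had 0, 2 and 0 counts in starved and 6, 9 and 6 in fed N2, and 26, 20 and 29 in starved and 15, 7 and 10 in fed raga-1. Its neighbour asp-16 had 76, 58 and 75 counts in starved and 2, 0 and 2 in fed raga-1 and 6, 12 and 17 in starved N2. At these counts the size of a change is not firm, and none is given. The gene asp-14 was higher in starved rsks-1 (429.5, 422 and 427 CPM) than in starved N2 (190.3, 192 and 201 CPM, log2 difference 1.13, SE 0.04). It fell in rsks-1 with food (log2 change -0.33, SE 0.03), while under TMM it rose in N2 (log2 change 0.36, SE 0.04). In TPM, which TMM does not scale, asp-14 in N2 was at 180 ± 4.25 starved and 183 ± 6.52 fed. Lower in raga-1 than in N2 in both states was asp-13 (log2 difference -0.96, SE 0.05 starved and -0.78, SE 0.06 fed), and higher was asp-8 (log2 difference 0.91, SE 0.06 and 1.11, SE 0.06).

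Counted over the class, the response of raga-1 proteases was above that of N2 for 8 and below it for 11 (21.8% and 28.8% of tested genes). That of rsks-1 proteases was above it for 5 and below it for 13 (10.8% and 15.8%). With library totals alone these were 11 and 7 for raga-1 (32.1% and 19.9%), against a shifted median of all genes, and 5 and 12 for rsks-1 (16.7% and 10.2%). Between the mutants, the raga-1 response was above the rsks-1 response for 13 proteases and below it for 6 (18.8% and 25.3% of tested genes), and for 10 and 3 pump subunits. With library totals alone it was above for 13 and below for 2 pump subunits (23.9% and 20.1%). In starved larvae 14 proteases were higher and 9 lower in raga-1 than in N2 (27.0% and 25.7% of tested genes), and 7 higher and 10 lower in rsks-1 (15.1% and 11.9%). In fed larvae 9 were higher and 10 lower in raga-1 (28.9% and 34.4% of tested genes, and 14 and 6 proteases with library totals alone), and 6 higher and 15 lower in rsks-1 (17.4% and 22.6%).

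The lysosomal membrane proteins were fewer and mixed. Of the 8, 5 rose and 3 fell in N2, 4 rose and 2 fell in raga-1, and 4 rose and 3 fell in rsks-1. Of all tested genes 36.5% rose and 37.4% fell in N2, 29.4% rose and 32.9% fell in raga-1, and for rsks-1 the shares were 35.7% and 35.2%. Falls were near the share of all genes in N2 and rsks-1. Scaling by library totals alone gave 4 and 4, 3 and 3, and 3 and 4 of the 8. The gene lmp-1 (WBGene00003053, chromosome X, 6376459 to 6377684, minus strand), which encodes a LAMP-like glycoprotein of the lysosome membrane and was the most abundant of the 8 per length, rose in N2 from 186, 197 and 197 to 295, 311 and 269 CPM (log2 change 0.59, SE 0.04; Benjamini-Hochberg adjusted p = 7.86e-29, edgeR quasi-likelihood). It rose by less in raga-1, from 177, 181 and 169 to 205, 191 and 207 CPM (log2 response difference -0.39, SE 0.05; Benjamini-Hochberg adjusted p = 2.39e-10, edgeR quasi-likelihood), and in rsks-1 (log2 response difference -0.22, SE 0.05, or -0.12 and without a call with library totals alone). The related lmp-2 was at 25.2, 29.4 and 27.4 CPM starved and 20.3, 24.2 and 22.5 CPM fed in N2, and its fall (log2 change -0.30, SE 0.10) was lost without N2 fed replicate 1 (-0.23).

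The 6 scav genes encode CD36-type scavenger receptors, a family that includes the lysosomal protein LIMP-2 of mammals. The gene scav-2 fell most in N2, from 50.4, 48.1 and 48.8 to 10.9, 10.1 and 8.71 CPM (log2 change -2.30, SE 0.09; Benjamini-Hochberg adjusted p = 4.65e-48, edgeR quasi-likelihood), and scav-3, which keeps worm lysosomes intact, fell from 91.2, 91.8 and 87.04 to 34.7, 32.8 and 33.9 CPM (log2 change -1.41, SE 0.06; Benjamini-Hochberg adjusted p = 5.79e-44, edgeR quasi-likelihood). Both falls were smaller in raga-1 (log2 response difference 0.99, SE 0.12; Benjamini-Hochberg adjusted p = 3.15e-12, edgeR quasi-likelihood for scav-2 and 0.67, SE 0.09 for scav-3), and fed raga-1 larvae had more scav-2 than fed N2, at 25.9, 28.9 and 27.6 CPM. In the other direction scav-5 went from 6.41, 5.87 and 6.23 to 20.7, 21.5 and 20.01 CPM in N2 (log2 change 1.75, SE 0.14) and rose by 1.76, SE 0.14 in raga-1 and 2.53, SE 0.16 in rsks-1. The annotated span of scav-5 overlaps by 93 bases that of gst-36 on the other strand, which held 14883 counts in all against 2256 of scav-5. Reads from the shared stretch cannot be told apart if strand was not used in counting, which the sources used here do not give. The rise of scav-4, from 13.005, 13.3 and 14.2 to 37.3, 35.98 and 34.6 CPM in N2 (log2 change 1.41, SE 0.09), was smaller in raga-1, at 20.4, 20.8 and 19.1 and 23.3, 24.8 and 22.1 CPM (log2 response difference -1.19, SE 0.13; Benjamini-Hochberg adjusted p = 4.93e-15, edgeR quasi-likelihood). Small rises were called for scav-6 in each genotype (log2 change 0.54, SE 0.08 in N2). For scav-1 in N2 a rise was called under TMM (log2 change 0.11, SE 0.05) but a fall with library totals alone (log2 change -0.19).

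Of the 3 acid sphingomyelinase genes, whose products split a membrane lipid in the lysosome or outside the cell, asm-3 differed most between genotypes. Its level was 26.2, 24.4 and 25.01 CPM in starved N2 but 2.19, 2.82 and 2.94 CPM in starved raga-1 (log2 difference -3.23, SE 0.12; Benjamini-Hochberg adjusted p = 6.48e-52, edgeR quasi-likelihood), and fed libraries were at 56.4, 56.3 and 56.03 CPM in N2 and 25.4, 26.6 and 30.03 CPM in raga-1. Fed raga-1 larvae thus held about as much asm-3 as starved N2, and the response to food was larger in raga-1 (log2 response difference 2.19, SE 0.15; Benjamini-Hochberg adjusted p = 1.54e-27, edgeR quasi-likelihood). In rsks-1 the levels, 24.3, 22.7 and 27.4 CPM starved and 52.1, 54.5 and 51.4 CPM fed, gave a response whose difference from that of N2 did not pass (log2 response difference -0.07, SE 0.11). The gene asm-2 fell in each genotype, from 61.1, 64.1 and 61.01 to 31.7, 31.5 and 31.3 CPM in N2 (log2 change -0.98, SE 0.07), and asm-1 stayed between 5.98 and 12.5 CPM in all libraries without a call on feeding.

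Other genes of the lysosome were counted as lists beside these members. For reading their counts, 36.5% of tested genes rose and 37.4% fell in N2, 29.4% rose and 32.9% fell in raga-1, and for rsks-1 the shares were 35.7% and 35.2%. Of 29 other lysosomal hydrolase genes, 16 rose and 11 fell in N2, 12 rose and 10 fell in raga-1, and 13 rose and 12 fell in rsks-1. Falls in N2 and raga-1 were near the share of all genes. In N2 the largest changes were rises of the glucosidase gene aagr-4 (log2 change 4.12, SE 0.16), the glucosylceramidase gene gba-2 (log2 change 2.33, SE 0.18) and pcp-2, a prolyl carboxypeptidase gene (log2 change 2.20, SE 0.06). In raga-1 larvae aagr-4 (log2 change -0.46, SE 0.16) and gba-2 (log2 change -1.63, SE 0.11) fell, and pcp-2 rose (log2 change 0.16, SE 0.05). Of 10 other cathepsin and cathepsin inhibitor genes 6 rose and 4 fell in N2 (median log2 change 0.83), 4 rose and 4 fell in raga-1 (median -0.07), and 4 rose and 6 fell in rsks-1 (median -0.34). The largest rises in N2 were those of the carboxypeptidase (cathepsin A-like) genes ctsa-1.2 (log2 change 1.82, SE 0.04), ctsa-1.1 (log2 change 1.78, SE 0.03) and ctsa-3.1 (log2 change 1.77, SE 0.04).

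Among 16 tested lysosomal transporters and channels 9 rose and 5 fell in N2, 6 rose and 4 fell in raga-1, and 8 rose and 7 fell in rsks-1 (shares of all tested genes as given for the hydrolases). The falls in N2 and raga-1 were below those shares. The amino acid exporter gene laat-1 rose in N2 (log2 change 1.79, SE 0.07) and by less in raga-1 (log2 response difference -1.04, SE 0.10), and cln-3.1, a homologue of the Batten disease gene CLN3, rose as well (log2 change 1.87, SE 0.17). Of 15 tested genes for fusion of late endosomes with lysosomes, 9 rose and 1 fell in N2, the fall being that of the small GTPase gene rab-7 (log2 change -1.30, SE 0.05), while 6 rose and 2 fell in raga-1 and 3 rose and 3 fell in rsks-1, in both directions less than the 35.7% and 35.2% of all tested genes. Of 4 regulator genes, 3 fell in N2. The gene hlh-30, which encodes the worm counterpart of the lysosomal gene activator TFEB, was at 449.9 ± 11.4 CPM in starved and 244 ± 4.67 CPM in fed N2 (log2 change -0.88, SE 0.03), at 403 ± 6.38 and 373 ± 10.3 CPM in raga-1 (log2 change -0.11, SE 0.03), and at 403 ± 13.8 and 224 ± 6.28 CPM in rsks-1 (log2 change -0.85, SE 0.03). Its fall was smaller in raga-1 than in N2 (log2 response difference 0.77, SE 0.05; Benjamini-Hochberg adjusted p = 3.54e-32, edgeR quasi-likelihood). The repressor gene mxl-3 fell in each genotype (log2 change -2.50, SE 0.06 in N2). Scaled by library totals alone, the hydrolases gave 13 rises and 12 falls in N2, 7 rises and 12 falls in raga-1, and for rsks-1 12 rises and 15 falls. In the same order of genotypes the transporters gave 8 and 6, 5 and 6, and 8 and 7. The fusion genes gave 5 and 4, 3 and 2, and 3 and 7. The other cathepsins and inhibitors gave 5 and 4, 4 and 5, and 4 and 6. Of the 4 regulators 3 still fell in N2.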

How the data were processed

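RNA was measured in 18 libraries of whole L1 larvae, 3 per group, grouped by genotype and feeding as the labels give them. The authors deposited expected counts per gene and per isoform. The submitters' processing notes name STAR, RSEM and DESeq2 without versions. The sources used here do not give strandedness or library preparation. Reads shared by similar genes are divided by such estimates, and 0.962% of gene values were not whole, none of them of the 60 members. Names were found for 44017 of 46904 gene identifiers. The labels name a genome build that could not be matched to the Ensembl WBcel235 annotation used here for names, lengths and coordinates.

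Deposited expected counts were rounded, genes were filtered with filterByExpr (minimum count 10), and 14073 genes were fitted with edgeR 4.0.16 (R 4.3.3) by the quasi-likelihood test over all 18 libraries with TMM scaling, 1 mean per group and Benjamini-Hochberg adjustment over all genes in each of 10 comparisons. The same 3 N2 libraries of a state serve both mutants. SE is the log2 change divided by the square root of F. Counts of calls use an adjusted p of 0.05. TPM were computed from the deposited isoform counts and annotated lengths, found for 61362 of 61451 isoforms. Totals of 9929323 to 18539402 counts set a precision that covers counting error only. The fit was tested on simulated data. DESeq2 1.42.0 served as an alternative, with other scalings, no filter, isoform sums, fewer libraries and a replicate block. Same-numbered libraries of different groups did not deviate together (correlations from -0.046 to 0.033), so numbers were not taken as pairs. Replicates within a group differed by more than counting noise (chi-square per gene 2.118 to 5.985).

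The members and all lists were chosen with earlier results of these data known. Named with values are the a subunits, the proteolipids, cpl-1, lmp-1, lmp-2 and, in each class and comparison, up to 4 called members with the largest change, where a compared group averaged 10 CPM or more. From each pathway list up to 3 genes are named by a like rule. Other members named were chosen after their values were seen. Software beside R was Python 3.11.15 with matplotlib 3.10.9, NumPy 2.4.6 and pandas 2.3.3.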

Additional observations from a re-analysis of the deposited data

Results flagged for a closer look

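The response to food of these named genes differed between 2 genotypes by a test of the difference itself (edgeR quasi-likelihood, Benjamini-Hochberg adjusted p below 0.05), and values in parentheses are differences between the log2 responses under TMM. Both mutants are set against the same N2 libraries.

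In raga-1 against N2, among pump subunits, the response was above for vha-7 (0.68) and vha-5 (0.24) and below for vha-12 (-0.61), vha-13 (-0.59), vha-11 (-0.57), vha-6 (-0.56), vha-3 (-0.33), vha-4 (-0.29), unc-32 (-0.24), vha-1 (-0.16) and vha-2 (-0.10). Among the proteases, the response was above for cpr-2 (2.12) and cpz-1 (1.86) and below for asp-12 (-3.53) and cpr-3 (-1.39). Among the membrane proteins and sphingomyelinases, the response was above for asm-3 (2.19), scav-2 (0.99), scav-3 (0.67) and asm-2 (0.30) and below for scav-4 (-1.19) and lmp-1 (-0.39). With library totals alone vha-1 (0.04) and vha-2 (0.10) changed sign, and the call of vha-2 was lost without N2 starved replicate 1, N2 fed replicate 1, raga-1 starved replicate 2 or raga-1 fed replicate 2.

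In rsks-1 against N2, among pump subunits, the response was above for vha-7 (0.41) and below for vha-6 (-0.78), vha-12 (-0.70), vha-19 (-0.53), vha-20 (-0.52), vha-3 (-0.31), vha-4 (-0.25), vha-2 (-0.22) and vha-5 (-0.19). Among the proteases, the response was below for asp-12 (-1.72), cpr-9 (-1.32), cpr-1 (-1.21), cpr-5 (-1.103) and cpl-1 (-0.63). Among the membrane proteins and sphingomyelinases, the response was above for scav-5 (0.78) and scav-2 (0.44) and below for scav-4 (-0.70) and lmp-1 (-0.22). The call of vha-7 was lost without N2 fed replicate 1 (0.31) or rsks-1 fed replicate 2 (0.32), and that of scav-2 without N2 fed replicate 3 (0.36) or rsks-1 fed replicate 2 (0.29).

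In raga-1 against rsks-1, among pump subunits, the response was above for vha-17 (0.55), vha-5 (0.43), vha-7 (0.28), vha-14 (0.26), vha-6 (0.22) and vha-2 (0.11) and below for unc-32 (-0.24). Among the proteases, the response was above for cpr-2 (3.06), cpr-4 (1.57) and cpl-1 (0.52) and below for asp-12 (-1.80) and cpr-3 (-1.54). Among the membrane proteins and sphingomyelinases, the response was above for asm-3 (2.26), scav-3 (0.83), scav-2 (0.55), asm-2 (0.49) and lmp-2 (0.43) and below for scav-5 (-0.77), scav-4 (-0.48) and lmp-1 (-0.17). The call of vha-7 was lost without raga-1 starved replicate 3 (0.23), raga-1 fed replicate 1 (0.24), rsks-1 starved replicate 1 (0.26) or rsks-1 fed replicate 3 (0.20), and that of vha-2 without raga-1 fed replicate 1.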

How the results depend on the processing

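Of 3417 values of 231 named results under the alternatives, 3322 kept direction and side of the threshold, 65 lost and 19 gained a call, and 11 changed sign, all under scaling by library totals alone. These were, on feeding, vha-5 in N2 (-0.049) and rsks-1 (-0.14), unc-32 in raga-1 (-0.0014) and vha-2 in rsks-1 (-0.041). In the difference of responses between raga-1 and N2 they were vha-1 (0.038) and vha-2 (0.10), and in fed raga-1 against fed N2 vha-6 (0.022), vha-3 (0.044), unc-32 (0.19), vha-2 (0.23) and vha-4 (0.21). That scaling shifts all genes by 1 factor per library, given as medians above. Under it counts of lower pump subunits on feeding became 2 in N2 and 5 in rsks-1 (49.3% and 44.4% of tested genes were lower). For the response of raga-1 against N2 it gave 17 members lower, 5 pump subunits higher and 8 lower, and 7 proteases lower. Of all tested genes 32.1% were then higher and 19.9% lower. For fed raga-1 against N2 it gave 35 members higher and 10 lower, 17 pump subunits higher and 0 lower, and 14 proteases higher and 6 lower. The same scaling also gave 0 lower pump subunits in starved raga-1 (17.2% of tested genes were lower) and 2 higher ones in fed rsks-1 (22.1% were higher). Without a filter on low counts 0 pump subunits were lower in starved raga-1, and with only the libraries compared 7 were lower in fed raga-1. DESeq2 called 0 lower pump subunits in starved rsks-1 and 0 higher ones in fed rsks-1. When single libraries were left out, counts ranged from 0 to 1 for lower pump subunits in starved raga-1 and starved rsks-1, for higher ones in fed rsks-1, and for those with a larger response in rsks-1 than in N2. Causes were not tested. The replicate block changed none of the 231 values or 60 counts (for example, 18 pump subunits rose in N2 with it). Own numbers matched best in 16 of 45 comparisons of libraries. Depth limits asp-16, asp-17 and vha-18.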

Other observations

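Several members lie next to each other in the genome (coordinates of WBcel235). The proteolipid genes vha-1 (chromosome III, 9781254 to 9781763) and vha-2 (9782164 to 9783224) are 400 bases apart on the plus strand, and their log2 changes on feeding were 0.47 and 0.37 in N2, 0.36 and 0.16 in rsks-1 and 0.31 and 0.27 in raga-1 (below 0 for vha-2 in rsks-1 with library totals alone). The C subunit gene vha-11 and the proteolipid gene vha-3, 892 bases apart on the minus strand of chromosome IV, had log2 changes of 1.16 and 0.83 in N2, 0.84 and 0.53 in rsks-1 and 0.59 and 0.50 in raga-1. On chromosome V cpr-5 and cpr-8 stand back to back, 565 bases apart, and both rose on feeding in each genotype (cpr-8 by 1.63 in N2, 0.45 in raga-1 and 0.73 in rsks-1). Nearness did not go with 1 response in the row asp-6, asp-12 and asp-5 on chromosome V, with gaps of 272 and 328 bases. In N2 asp-6 fell (-0.82) while asp-12 (2.01) and asp-5 (0.36) rose.

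The annotated spans of some members overlap those of other genes. Without strand, reads from a stretch shared by genes on opposite strands cannot be told apart. The gene gst-36 overlaps scav-5 by 93 bases on the other strand and held 14883 counts over the 18 libraries against 2256 for scav-5. The H subunit gene vha-18, with 252 counts, overlaps F52E1.2, with 4529 counts, by 57 bases. Further members overlap genes on the other strand, among them vha-5 (76222 counts) with F35H10.10 (32663) by 57 bases. In the same way scav-4 (5754 counts) overlaps mff-1 (2645) by 79 bases, and asm-1 (2264) overlaps cyn-10 (2134) by 120 bases. The proteolipid gene vha-2 shares 219 bases with R10E11.6 on its own strand, where vha-2 held 262596 and R10E11.6 held 4774 counts.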
